A study of Mus musculus with 9 samples.

Results

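The genes described here are 4 genes of major histocompatibility complex class II antigen presentation (H2-Aa, H2-Ab1, H2-Eb1 and Cd74) and 6 genes used as marks of macrophages (Csf1r, Aif1, C1qa, C1qb, C1qc and Cx3cr1). Every probe set of the array table that is annotated to exactly 1 of these symbols was taken, which gave 20 probe sets of 10 genes among 34945 probe sets with a single gene symbol. Class II genes account for 9 of the 20 and macrophage genes for 11. Signals were measured on 9 Affymetrix arrays of mouse cells that the submitters captured as neural crest cells (NCCs) by laser microdissection. NCCs of E8.5 embryos, in which the neural tube was closing, gave 3 arrays, NCCs in the dorsal root ganglia of E13.5 embryos gave 3, and NCCs in the adrenal medulla of adult mice at P90 (3 months) gave 3. The labels name no treatment, mutation or transgene, and strain, sex and the number of animals behind each array are not given in the sources used here. No marker or reporter used to choose the captured cells is named. Tissue and age change together over these stages and cannot be told apart, and in bulk samples fewer cells of a type and less RNA per cell cannot be told apart either. P-values measure the spread between samples labelled biological replicates, and 3 arrays a stage limit the precision of every value.

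Class II molecules are pairs of an alpha and a beta chain that show peptides from engulfed material to helper T cells. In mice the I-A molecule is made of the products of H2-Aa (alpha) and H2-Ab1 (beta), and H2-Eb1 encodes the beta chain of I-E. Cd74 encodes the invariant chain, which fills the binding groove of new class II molecules and guides them to endosomes. Dendritic cells, B cells and activated macrophages are the usual carriers. Macrophages settle in most tissues, the nervous system and the adrenal gland included, and need signalling through the receptor encoded by Csf1r to survive. They are the main source of C1q, the recognition part of the classical complement pathway, which is built from the chains encoded by C1qa, C1qb and C1qc. Aif1 encodes the actin-binding protein Iba1, a widely used stain for microglia and macrophages, and Cx3cr1 encodes the receptor for fractalkine.

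Class II promoters are known for an upstream X box, bound by the RFX complex, and a Y box with the letters CTGATTGG, bound by NF-Y. The promoters of H2-Aa and H2-Eb1, the class II genes with the largest changes at P90 among those tested, are shown first. Each runs from 250 bases before to 50 after the annotated start, 5' to 3' on the strand of the gene, and was taken from RefSeq on build GRCm38.p6. Capitals mark GCAAC, letters found in X boxes, and further on CTGATTGG.
H2-Aa promoter, chr17:34287774-34288073, minus strand: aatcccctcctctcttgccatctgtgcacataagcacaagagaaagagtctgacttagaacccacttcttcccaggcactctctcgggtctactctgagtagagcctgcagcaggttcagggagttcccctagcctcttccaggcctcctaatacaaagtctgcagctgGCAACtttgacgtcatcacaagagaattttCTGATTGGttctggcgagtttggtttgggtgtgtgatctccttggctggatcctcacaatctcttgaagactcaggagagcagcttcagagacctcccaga
H2-Eb1 promoter, chr17:34305617-34305916, plus strand: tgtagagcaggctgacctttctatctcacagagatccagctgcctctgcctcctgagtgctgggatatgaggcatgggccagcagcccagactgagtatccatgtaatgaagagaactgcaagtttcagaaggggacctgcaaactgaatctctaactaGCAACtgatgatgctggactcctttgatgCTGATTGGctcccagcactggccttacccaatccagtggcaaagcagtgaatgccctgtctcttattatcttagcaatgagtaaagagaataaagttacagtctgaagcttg
GCAAC began 81 bases before the start of H2-Aa and 91 before that of H2-Eb1, and CTGATTGG began 51 and 62 bases before the start. On either strand CTGATTGG was found in 4.10% of 32851 promoters of the same length and GCAAC in 35.2%. Both letter runs in this order, on 1 strand and at most 40 bases apart, were found in 0.164%, or 54 promoters.
The promoters of C1qb and C1qc, the macrophage genes with the largest changes at P90, are shown with ACTTCCT in capitals. Read on the other strand these letters are AGGAAGT, a form of the purine-rich sequence bound by ETS factors such as Spi1 (PU.1), which is needed for macrophage development.
C1qb promoter, chr4:136886151-136886450, minus strand: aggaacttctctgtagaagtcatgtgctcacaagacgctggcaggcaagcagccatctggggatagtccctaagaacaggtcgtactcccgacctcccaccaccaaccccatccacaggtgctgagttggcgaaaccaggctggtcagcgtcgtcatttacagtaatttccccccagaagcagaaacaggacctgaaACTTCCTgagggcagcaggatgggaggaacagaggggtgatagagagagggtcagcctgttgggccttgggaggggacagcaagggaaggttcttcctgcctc
C1qc promoter, chr4:136892865-136893164, minus strand: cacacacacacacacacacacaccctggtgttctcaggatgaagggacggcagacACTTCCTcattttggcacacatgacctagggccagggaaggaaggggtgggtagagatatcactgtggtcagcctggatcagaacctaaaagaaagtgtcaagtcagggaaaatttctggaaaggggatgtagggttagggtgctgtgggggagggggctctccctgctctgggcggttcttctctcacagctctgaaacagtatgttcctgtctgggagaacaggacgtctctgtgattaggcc
AGGAAGT or its reverse was present in 9.35% of all promoters. The letters marked were chosen after the sequences were seen, and a match describes the sequence only. Of the 10 genes, 6 had a promoter in the RefSeq table, Aif1 and Cx3cr1 being the others. By RefSeq gene positions C1qb, C1qc and C1qa lie close together in this order on chromosome 4, while H2-Ab1, H2-Aa, H2-Eb1 and Aif1 all lie on chromosome 17.

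Values are linear signals with a floor of 1 and no detection calls, so a dim signal is not shown to be above background. Array medians were 38.3 to 48.2. Arrays of 1 stage correlated at r = 0.874 to 0.985 over all probe sets except controls, against 0.819 to 0.914 for arrays of different stages. Chromaffin genes, the marks of adrenal medulla, included 7 of 8 tested genes that were higher and 0 lower at P90 than at E13.5. The P90 arrays differed in these genes. Pnmt was at 633, 3749 and 3289 on P90 replicates 1, 2 and 3, and Dbh at 305, 2172 and 2072. The difference was smaller for Chga, at 4368, 7120 and 7521. Of the sensory ganglion list 3 of 4 tested genes were higher and 0 lower at E13.5 than at E8.5. The brightest probe sets of Pou4f1, Scn9a, Nefl and Stmn2 had no value on any E13.5 array, and other probe sets of these genes are not described here. Of 10 neural crest genes, 8 were lower and 0 higher at P90 than at E8.5. Of all genes, each by its brightest probe set, 3.18% were called higher at P90 than at E13.5. The share called higher at E13.5 than at E8.5 was 8.82%, and that called lower at P90 than at E8.5 was 11.8%. Actb control probe sets near the 3' end read higher than those near the 5' end, a measure used for RNA quality, by 0.85 (E13.5 replicate 1) to 7 (E13.5 replicate 2) on the log2 scale. Empty cells fell on the genes described here more often at P90, where 13 of 60 of their cells (21.7%) had no value, against 1.88% of all P90 cells. The reason for empty cells is not stated.

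A probe set was tested where its signal passed 26.1 on at least 3 of 9 arrays and each stage had at least 2 values. That left 13 of the 20 probe sets and 8 of the 10 genes, with none for Cd74 or C1qa. Of the 13, 5 passed only because of P90 arrays (both of H2-Aa, H2-Ab1 1451721_a_at, C1qb 1417063_at and Cx3cr1 1450020_at), so a high P90 level was part of how these entered. Changes are differences of log2(signal + 16), which understate the change of dim probe sets, from 1 limma fit of all 9 arrays with p-values adjusted by Benjamini-Hochberg over all 24012 tested probe sets.

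The class II signals were far higher at P90 than at E13.5 or E8.5. H2-Aa, H2-Ab1 and H2-Eb1 rose at P90 against both earlier stages on every tested probe set, and Cd74, which could not be tested, had its 2 measured P90 signals far above its 6 earlier ones. The tested changes against E13.5 ran from 1.51 to 5.30 on the log2 scale.

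H2-Aa 1435290_x_at gave 22.6, 18.3 and 15.8 on the E8.5 arrays, 35.2, 35.8 and 23.8 on the E13.5 arrays, and 2552 and 1327 on P90 replicates 2 and 3, with no value on P90 replicate 1. Both P90 values lay above all 6 earlier ones. The log2 change was 5.30 ± 0.35 against E13.5 (SE; limma, adjusted p = 7.59e-05) and 5.74 ± 0.35 against E8.5 (adjusted p = 1.016e-05), with the empty array left out of the fit. H2-Aa 1452431_s_at was at 7.11 to 18.6 at E8.5, 12.5 to 27.3 at E13.5, and 390 and 207 on the same 2 P90 arrays. Its change was 3.09 ± 0.34 against E13.5 (limma, adjusted p = 0.000612) and 3.46 ± 0.34 against E8.5 (adjusted p = 0.0001036). Of the other H2-Aa probe sets, 1443783_x_at was at 4.11, 52.7 and 19.5 at P90 and at most 5.16 earlier, and 1438858_x_at had no P90 value. P90 replicate 1 of 1443783_x_at overlapped the earlier arrays, and neither probe set was tested.

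H2-Eb1 1417025_at had a value on every array, with 23.9, 19.7 and 8.73 at E8.5, 33.4, 42.7 and 70.9 at E13.5, and 786, 1576 and 1046 at P90. The 3 P90 arrays lay above all earlier arrays, and every E13.5 array lay above every E8.5 array. Mean signals were 17.4 ± 7.83, 49.0 ± 19.6 and 1136 ± 403 (SD, n = 3 arrays each). The log2 change at P90 was 4.13 ± 0.36 against E13.5 (limma, adjusted p = 0.0001225) and 5.08 ± 0.36 against E8.5 (adjusted p = 1.056e-05).

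H2-Ab1 1450648_s_at had signals of 80.8, 67.3 and 98.5 at E8.5, 167, 198 and 225 at E13.5, and 676, 1151 and 745 at P90. No stage overlapped another. The change at P90 was 2.01 ± 0.34 against E13.5 (limma, adjusted p = 0.0048) and 3.13 ± 0.34 against E8.5 (adjusted p = 0.0001173). H2-Ab1 1451721_a_at gave 40.1, 58.3 and 51.6 at P90 against 10.4, 9.02 and 2.48 at E13.5, with 16.5, 9.77 and 24.9 at E8.5. It passed the filter on P90 arrays alone and was also higher at P90, by 1.51 ± 0.24 against E13.5 (limma, adjusted p = 0.003706) and 1.01 ± 0.24 against E8.5 (adjusted p = 0.01337). The call against E8.5 was lost without E8.5 replicate 2 (adjusted p = 0.0711) and with a pseudocount of 1. Its remaining probe set, 1425477_x_at, had 19.5 to 45.6 at P90 against 1.36 to 4.66 at E13.5 and was too dim to be tested.

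Cd74 1425519_a_at gave 17.1, 13.2 and 15.5 at E8.5, 21.6, 20.4 and 18.6 at E13.5, and 1705 and 1119 on P90 replicates 2 and 3. P90 replicate 1 was empty, so only 2 arrays passed the filter and the main test left the probe set out. No earlier array reached the filter signal of 26.1. With no filter on signal the log2 changes were 5.27 ± 0.29 (limma, adjusted p = 0.0002373) and 5.48 ± 0.29 (adjusted p = 3.232e-05).

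**Figure D1:**
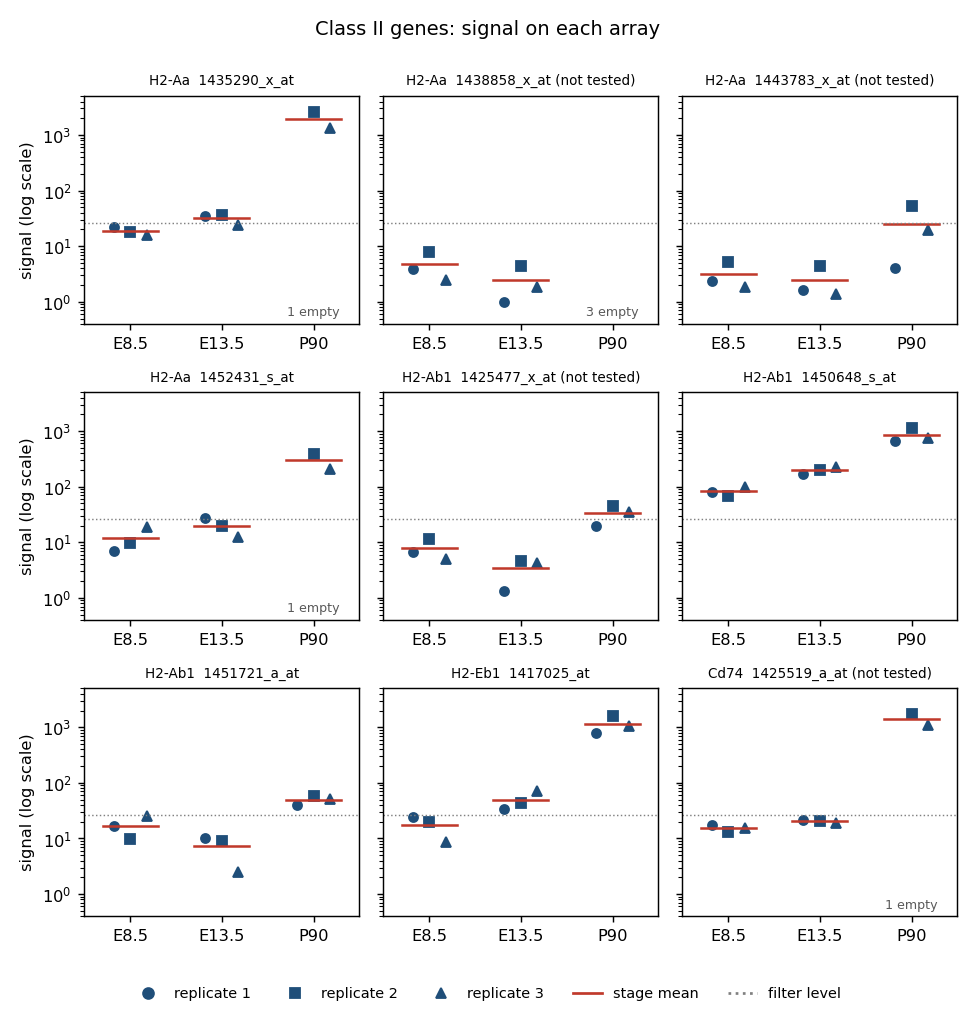
Signal of each class II probe set on the 9 arrays (log axis), by stage in the order E8.5, E13.5 and P90; each point is 1 array and the line is the stage mean. The P90 points of H2-Eb1, at 786 to 1576, stand above all earlier points, and P90 replicate 1 is missing for Cd74 and for the tested H2-Aa probe sets.

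The macrophage genes split in their calls. At P90 the C1q genes that could be tested rose against both earlier stages, Cx3cr1 rose against E8.5, and Aif1 and Csf1r passed the test in neither comparison. Against E13.5, 3 of the 8 tested macrophage probe sets were called, all higher, and against E8.5, 4 of 8, all higher. Of all tested probe sets, 2.88% and 9.57% were called higher in these comparisons and 4.6% and 11.2% lower. The called ones include a C1qb probe set and, against E8.5, Cx3cr1, which passed the signal filter only because of P90 arrays.

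C1qb 1434366_x_at had signals of 37.7, 22.8 and 39.7 at E8.5, 132, 114 and 78.7 at E13.5, and 1243, 759 and 305 at P90. The stages did not overlap, though the P90 arrays differed 4.08-fold among themselves. The change at P90 was 2.47 ± 0.46 against E13.5 (limma, adjusted p = 0.008091) and 3.80 ± 0.46 against E8.5 (adjusted p = 0.0002488). Without E13.5 replicate 3 the adjusted p against E13.5 was 0.0576. C1qb 1417063_at gave 210 and 191 on P90 replicates 2 and 3, against 9.84 and 8.03 on E13.5 replicates 1 and 3, with 6.51, 59.7 and 65.7 at E8.5 and 2 empty cells left out of the fit. It was higher at P90 by 3.12 ± 0.57 against E13.5 (limma, adjusted p = 0.01108) and by 2.06 ± 0.52 against E8.5 (adjusted p = 0.02129). Another C1qb probe set, 1437726_x_at, was at 2.58 to 3.66 at E8.5 and 41.9 to 98.3 at E13.5 and had no P90 value.

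C1qc 1449401_at had 12.1, 12.1 and 1.72 at E8.5, 66.7, 30.0 and 28.3 at E13.5, and 281, 167 and 117 at P90. All P90 arrays lay above all E13.5 arrays, and these above all E8.5 arrays. The change at P90 was 1.81 ± 0.36 against E13.5 (limma, adjusted p = 0.01209) and 3.00 ± 0.36 against E8.5 (adjusted p = 0.0002418). Without E13.5 replicate 3 the first adjusted p was 0.0798. C1qa 1417381_at, from a gene close to C1qc, gave 8.50, 8.57 and 6.58 at E8.5 and 31.4, 13.6 and 10.7 at E13.5, with all 3 P90 cells empty and no test.

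Cx3cr1 1450020_at had 8.55, 9.73 and 7.65 at E8.5, 30.3, 24.4 and 21.0 at E13.5, and 43.1, 83.1 and 42.1 at P90. The stages did not overlap. Its change passed the test for P90 against E8.5 (1.50 ± 0.25; limma, adjusted p = 0.001632), and was 0.77 ± 0.25 for P90 against E13.5 (adjusted p = 0.09618). Its other probe set, 1450019_at, was near the floor of 1 on most arrays, with a highest signal of 6.87 at E8.5, and was not tested.

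Aif1 1418204_s_at had 35.7, 29.7 and 24.3 at E8.5, 43.4, 15.9 and 30.1 at E13.5, and 63.5, 59.8 and 62.2 at P90. The P90 arrays lay above all 6 others but the change missed the threshold, at 0.81 ± 0.26 against E13.5 (limma, adjusted p = 0.09408) and 0.77 ± 0.26 against E8.5 (adjusted p = 0.058). Without E13.5 replicate 1 the first of these had an adjusted p of 0.0451. The second was called without E13.5 replicate 1 or 2, with only the arrays compared and with a pseudocount of 64 (limma, adjusted p as low as 0.0248).

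Csf1r passed the test in no comparison. Csf1r 1419872_at gave 818, 989 and 1431 at E8.5, 1518, 1811 and 1874 at E13.5, and 2131, 2195 and 1807 at P90. P90 overlapped E13.5, and both lay above all E8.5 arrays. The change at P90 was 0.24 ± 0.33 against E13.5 (limma, adjusted p = 0.7843) and 0.94 ± 0.33 against E8.5 (adjusted p = 0.06852). Csf1r 1419873_s_at was at 222 to 304, 273 to 421 and 279 to 508 at the 3 stages, with all stages overlapping. Csf1r 1423593_a_at was at 21.9 to 50.2, 28.8 to 43.8 and 54.3 to 70.1, with P90 above the earlier stages but no call. For Csf1r 1423593_a_at the changes at P90 were 0.59 ± 0.27 against E13.5 and 0.70 ± 0.27 against E8.5 (limma, adjusted p = 0.248 and 0.08783).

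**Figure D2:**
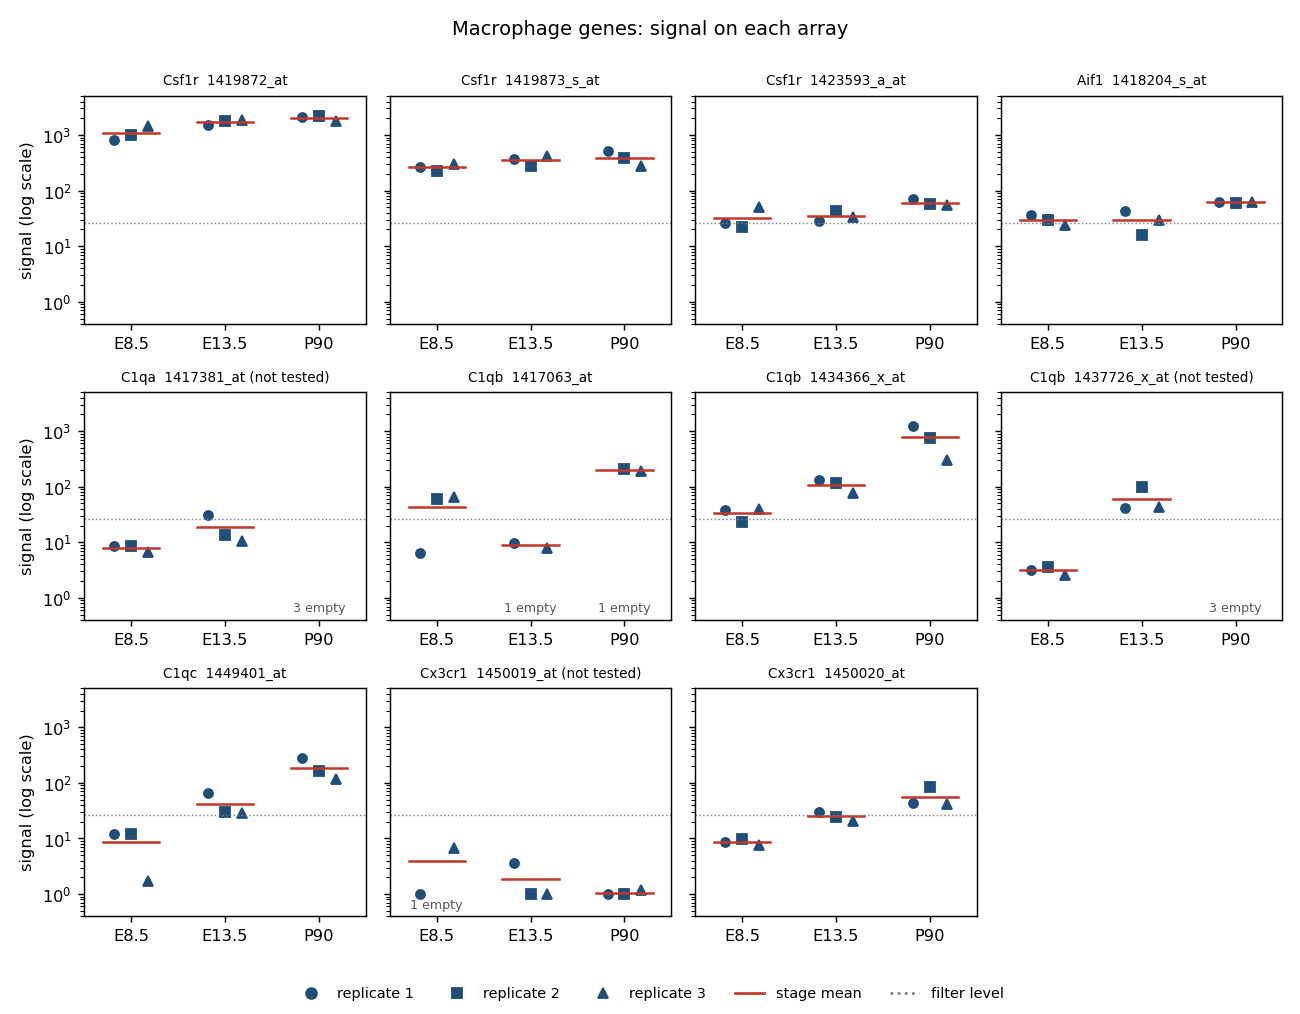
Signal of each macrophage probe set on the 9 arrays (log axis), by stage in the order E8.5, E13.5 and P90; each point is 1 array and the line is the stage mean. C1qb 1434366_x_at and C1qc step up at each stage, while Csf1r 1419872_at stays between 818 and 2195 on all arrays.

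Counted over probe sets, 8 of the 13 tested were higher and 0 lower at P90 than at E13.5 (limma, with 11 higher and 0 lower at an unadjusted p under 0.05), where 2.88% of all tested probe sets were called higher, 4.6% lower and 7.48% in either direction. At P90 against E8.5, 9 of 13 were higher and 0 lower (12 and 0 unadjusted), with 9.57% of all called higher, 11.2% lower and 20.8% in either direction. Class II probe sets made up 5 of 5 in both comparisons. The median log2 change of the 13 was 1.80 against E13.5 and 2.06 against E8.5, beside -0.020 and -0.0042 over all tested probe sets. By ranks alone, all measured P90 values lay above all E13.5 values for 13 of the 17 probe sets with values at both stages. They lay below for 0, against 10% above and 12.5% below among all tested probe sets. Against E8.5, P90 lay above for 14 and below for 0, with 19.8% and 23.2% among all. The 17 include some that were not tested, so these rank counts are not of the same kind as the shares. Some of the 17 had only 2 P90 values. Without P90 replicate 2 or 3 the called probe sets numbered 4 of 9 tested against E13.5 and 5 of 9 against E8.5, since H2-Aa and C1qb 1417063_at, each with an empty P90 cell, then had too few values and H2-Ab1 1451721_a_at no longer passed the signal filter, and without E13.5 replicate 3 they numbered 5 against E13.5. These counts and medians include the 5 probe sets that passed the filter only through P90 arrays, and both comparisons share the P90 arrays.

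**Figure D3:**
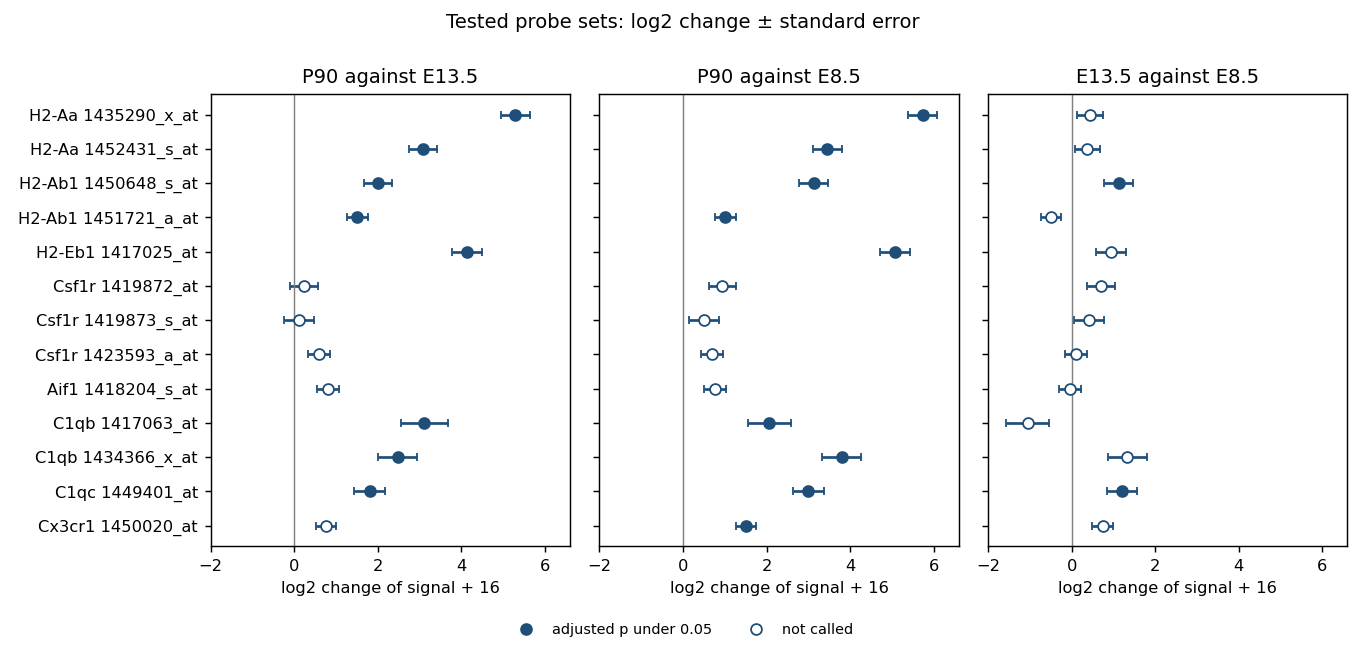
Log2 change with its standard error for the 13 tested probe sets in the 3 comparisons (P90 against E13.5, P90 against E8.5, E13.5 against E8.5); filled points passed an adjusted p of 0.05. The class II probe sets reach 5.30 and 5.74 at P90, and the Csf1r points lie near 0 for P90 against E13.5.

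Within P90, class II and C1q signals did not rank the arrays alike. All 5 class II probe sets with 3 P90 values were highest on replicate 2 and lowest on replicate 1, by 2.01-fold for H2-Eb1 and 1.70-fold for H2-Ab1 1450648_s_at. Of 7 tested macrophage probe sets with 3 P90 values, 5 were highest on replicate 1, with C1qc 2.41-fold above its lowest array. Csf1r 1419872_at and Cx3cr1 1450020_at were highest on replicate 2. The Actb difference on P90 replicates 1, 2 and 3 was 1.36, 4.09 and 3.51. On the same arrays the chromaffin gene Pnmt was at 633, 3749 and 3289. The leukocyte gene Laptm5 was at 3500, 812 and 589, while Lyve1, of the same list, was at 79.2, 438 and 244. The part of the Actb difference or of the cell types captured in the order of the arrays was not tested.

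Between the embryonic stages, 2 of 13 probe sets were higher at E13.5 than at E8.5 and 0 lower (limma, with 5 and 0 at an unadjusted p under 0.05), against 7.99% of all tested probe sets called higher, 6.98% lower and 15% in either direction. These were H2-Ab1 1450648_s_at, with a change of 1.12 ± 0.34 (adjusted p = 0.04874), and C1qc, with 1.20 ± 0.36 (adjusted p = 0.04885). All E13.5 arrays lay above all E8.5 arrays for 10 of 20 probe sets and below for 1, H2-Ab1 1425477_x_at, against 17.2% in each direction among all tested probe sets. The 20 include 7 that were not tested, so this count is not of the same kind as the shares. Both calls sit close to the threshold. Either was lost without any single embryonic array or P90 replicate 2, and H2-Ab1 also without P90 replicate 3. Leaving out single arrays gave adjusted p-values of 0.0374 to 0.202 for H2-Ab1 and 0.0239 to 0.192 for C1qc. H2-Aa 1435290_x_at was at 0.44 ± 0.31 and H2-Eb1 at 0.95 ± 0.36 (limma, adjusted p = 0.4207 and 0.1096). C1qb 1417063_at, with E13.5 replicate 2 empty, was lower at E13.5 without E8.5 replicate 1 (adjusted p = 0.0123), but had a change of -1.06 ± 0.52 with all arrays (limma, adjusted p = 0.2303).

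Few other genes of the class II pathway passed the test. Of 11 tested, 1 was higher and 0 lower at P90 than at E13.5, and 2 were higher and 0 lower than at E8.5, where 3.18% and 10.3% of all genes, each by its brightest probe set, were called higher and 5.4% and 11.8% lower. At E13.5 against E8.5, 1 was higher and 0 lower, with 8.82% of all genes higher and 6.77% lower. Median log2 changes at P90 were 0.23 against E13.5 and 0.16 against E8.5, with 1 probe set per gene. The 5 tested class II probe sets had medians of 3.09 and 3.46, and all 13 tested, macrophage genes included, 1.80 and 2.06. The latter 2 sets hold several probe sets of some genes, and some that passed the filter only because of P90 arrays. Rfx5, a subunit of the RFX complex that binds the X box, had mean signals of 218 ± 46.1, 225 ± 70.7 and 659 ± 87.6 in stage order (SD, n = 3 arrays each). It rose at P90 by 1.53 ± 0.36 against E13.5 (limma, adjusted p = 0.02756) and 1.54 ± 0.36 against E8.5 (adjusted p = 0.01237). The first call was lost without any single P90 array, E13.5 replicate 3, or E8.5 replicate 2 or 3 (adjusted p at most 0.102), and the second without E8.5 replicate 2. Ciita, the coactivator that class II transcription depends on, had 10.4, 17.3 and 20.0 at E8.5, 21.8, 33.2 and 30.9 at E13.5, and 32.6, 15.9 and 12.7 at P90, so its P90 arrays overlapped both earlier stages. H2-DMa, a chain of the molecule that helps load peptides, had means of 15.8, 59.5 and 56.1 in stage order. It rose at E13.5 against E8.5 (1.26; limma, adjusted p = 0.01208) and at P90 against E8.5 (1.17; adjusted p = 0.01308), and both calls were lost without E8.5 replicate 2, the second also without P90 replicate 2. Ctss, a protease that degrades the invariant chain, had no P90 value.

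Complement genes beside C1q were higher at P90 in part. Of 6 tested, 3 were higher and 0 lower against E13.5, and 5 were higher and 0 lower against E8.5. Of all genes, each by its brightest probe set, 3.18% and 10.3% were called higher in these comparisons and 5.4% and 11.8% lower. C2, which encodes the complement component cleaved after C1, had means of 58.9 (E8.5), 42.9 (E13.5) and 1054 (P90). Its change was 3.81 against E13.5 (limma, adjusted p = 0.001662) and 3.46 against E8.5 (adjusted p = 0.001124). C1ra, a protease that binds C1q, averaged 6.24, 8.04 and 166 and changed by 2.83 and 2.95 (limma, adjusted p = 0.0002979 and 7.108e-05). C5ar1, the C5a receptor, was at 9.23, 9.50 and 40.1 and rose against E13.5 by 1.18 (limma, adjusted p = 0.01401, or 0.0802 without E13.5 replicate 3). C1ra and C5ar1 passed the signal filter on P90 arrays alone, so a high P90 level was part of how they entered the test. Serping1, the inhibitor of C1, averaged 87.3, 368 and 849 and rose at P90 against E8.5 by 2.96 (limma, adjusted p = 0.002318). C3ar1, the C3a receptor, had 24.7, 49.5 and 98.8, with P90 replicate 1 empty. It rose against E8.5 by 1.48 (limma, adjusted p = 0.01596), a call lost without E8.5 replicate 1 or 2.

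Of the genes that encode receptor ligands and macrophage transcription factors, 8 were tested, with 1 higher against E13.5, 2 higher against E8.5 and 0 lower. The shares of all genes called higher were 3.18% and 10.3%, and lower 5.4% and 11.8%. Irf8, a factor of macrophage and dendritic cell development, averaged 26.1 at E8.5 and 24.2 at E13.5 and had a mean of 1103 on P90 replicates 1 and 2, replicate 3 being empty. It rose by 4.74 against E13.5 (limma, adjusted p = 9.358e-05) and 4.68 against E8.5 (adjusted p = 1.796e-05). Cebpa, another myeloid factor, rose against E8.5 by 1.35 (limma, adjusted p = 0.005001). Spi1 averaged 60.6, 50.2 and 131 at the 3 stages without a call. The ligands of Csf1r were not called, with Csf1 at 240, 217 and 226 and Il34 at 52.4, 58.6 and 104, and Cx3cl1, the ligand of Cx3cr1, was at 36.0, 51.5 and 65.4.

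Some other leukocyte markers were higher at P90. Of 20 tested macrophage and leukocyte genes, 4 were higher, 1 lower and 15 not called at P90 against E13.5. Against E8.5, 10 were higher and 0 lower. Of all genes, 3.18% and 10.3% were called higher and 5.4% and 11.8% lower. Median log2 changes of the list were 0.96 and 1.16. Uncalled Mrc1, Fcgr1, Cd53, Lcp1 and P2ry12 changed by 0.28, -0.043, -0.067, 0.12 and 0.28 against E13.5. The other uncalled genes were Fcgr3 (1.66), Laptm5 (1.54), Lyve1 (1.21), Tyrobp (1.12), Cd68 (1.04), Trem2 (0.99), Mertk (0.94), Cyba (0.15), Adgre1 (0.10) and Pf4 (-0.34). P90 replicate 1 was empty for Tyrobp, Cd68, Mertk, Cyba and Cd53, and E13.5 replicate 2 for Trem2. Cd163, which was not tested, had 12.2, 210 and 137 at P90 and at most 5.59 earlier. Lyz2, a lysozyme of macrophages and neutrophils, had means of 27.2, 45.4 and 609 in stage order, with P90 replicate 1 empty. It rose by 3.56 against E13.5 (limma, adjusted p = 0.003821). Lyz1, a close paralog whose probes may share targets with Lyz2, rose by 4.29 with P90 replicate 1 empty, and Cybb, a subunit of the phagocyte oxidase, by 3.40 in the same comparison (limma, adjusted p = 0.002214 and 0.0008156). Of the 4 genes called higher against E13.5, Lyz1, Cd14 and Cybb passed the signal filter only because of P90 arrays. The same held for Fcgr3, called against E8.5. A high P90 level was part of how these entered the test. Coro1a, an actin-binding protein of leukocytes and neurons, was the gene that fell, by 2.42 (adjusted p = 0.001686), with E13.5 replicate 1 empty. Against E8.5 the largest changes were 5.92 for Lyz1, 3.78 for Lyz2, 3.52 for Cybb and 2.88 for Laptm5, a lysosomal membrane protein of leukocytes (limma, adjusted p = 0.0001183, 0.001103, 0.000226 and 0.007129). Tyrobp, an adaptor of activating receptors on myeloid cells, had means of 114, 208 and 498 in stage order, with P90 on 2 arrays, and rose against E8.5 by 1.90 (limma, adjusted p = 0.009653). Fcer1g, another such adaptor, averaged 9.99 at E8.5 and 16.6 at E13.5, had 84.4, 20.1 and 15.6 at P90, where replicate 3 overlapped E13.5, and was not tested. Adgre1, the F4/80 antigen, averaged 330, 397 and 416 at the 3 stages. Cd68, a lysosomal protein of phagocytes, averaged 37.0, 35.0 and 89.0, the last on P90 replicates 2 and 3 alone. Ptprc, the pan-leukocyte antigen CD45, was at 8.46 to 11.7 at E8.5 and 16.1 to 32.3 at E13.5 by its brightest probe set. That probe set had 1 P90 value, 142 on replicate 3.

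Lists of other leukocytes, some of which carry class II, showed no calls at P90 against E13.5, where 3.18% of all genes were called higher and 5.4% lower. None of 3 dendritic, 4 B cell and 2 T and NK cell genes tested was called (limma, with 0, 1 and 0 at an unadjusted p under 0.05, all higher). Summed over genes without empty cells, dendritic markers came to 121 to 167 at E8.5, 151 to 169 at E13.5 and 151 to 532 at P90, and B cell markers to 166 to 226, 143 to 191 and 170 to 257. The members of these lists differed in level. Flt3, of dendritic cell precursors, averaged 8.12 at P90 and Cd3e, of T cells, 2.43, and Batf3 and Ccr7 lay near the floor. Itgax, an integrin of dendritic cells and some macrophages, had 360, 66.8 and 69.0 at P90 against 39.6, 64.8 and 44.4 at E13.5, with a change of 1.10 (limma, adjusted p = 0.2775). Zbtb46, a dendritic cell factor, had 129 on P90 replicate 1 and 27.3 and 28.5 on the others, and Cd8a, of cytotoxic T cells, was at 82.3 to 101 at P90. Some markers of adrenal cortex, the tissue that borders the medulla, were higher at P90. Scarb1, the lipoprotein receptor of steroid-making cells, averaged 533, 296 and 5226, with P90 replicate 3 empty. Fdx1, which feeds electrons to steroid synthesis, averaged 136, 574 and 5704. Both were called higher against E13.5, by 3.97 and 3.58 (limma, adjusted p = 0.0007675 and 0.005207). Of 6 cortical genes tested, these were the 2 called higher, and 0 were lower. Cyp11a1, the enzyme of the first step of steroid synthesis, averaged 27.6, 34.0 and 38.6 without a call. Of 10 endothelial genes 1 was higher, Eng, by 1.05 (limma, adjusted p = 0.02864), a call that held without E8.5 replicate 1 or E13.5 replicate 2 but not without any of the other 7 arrays. None of 3 neutrophil and mast cell genes was called (1 at an unadjusted p under 0.05, higher), while 1 of 5 fibroblast genes (Col1a2, a call lost without replicate 3 of E13.5 or of P90) and 2 of 5 red cell genes (Hbb-y and Slc4a1) were lower and 0 higher. At P90 against E8.5, 10.3% of all genes were called higher and 11.8% lower. In this comparison 3 of 6 cortical genes (Nr5a1, Scarb1 and Fdx1) were higher and 0 lower. Higher too were 2 of 10 endothelial genes (Eng and Robo4) and 1 of 5 fibroblast genes (Dcn), with 0 lower. Of 5 red cell genes 1 was higher (Alas2) and 2 lower (Hbb-y and Hbb-bh1). The part of these cell types in the class II and macrophage signals was not tested.

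**Figure D4:**
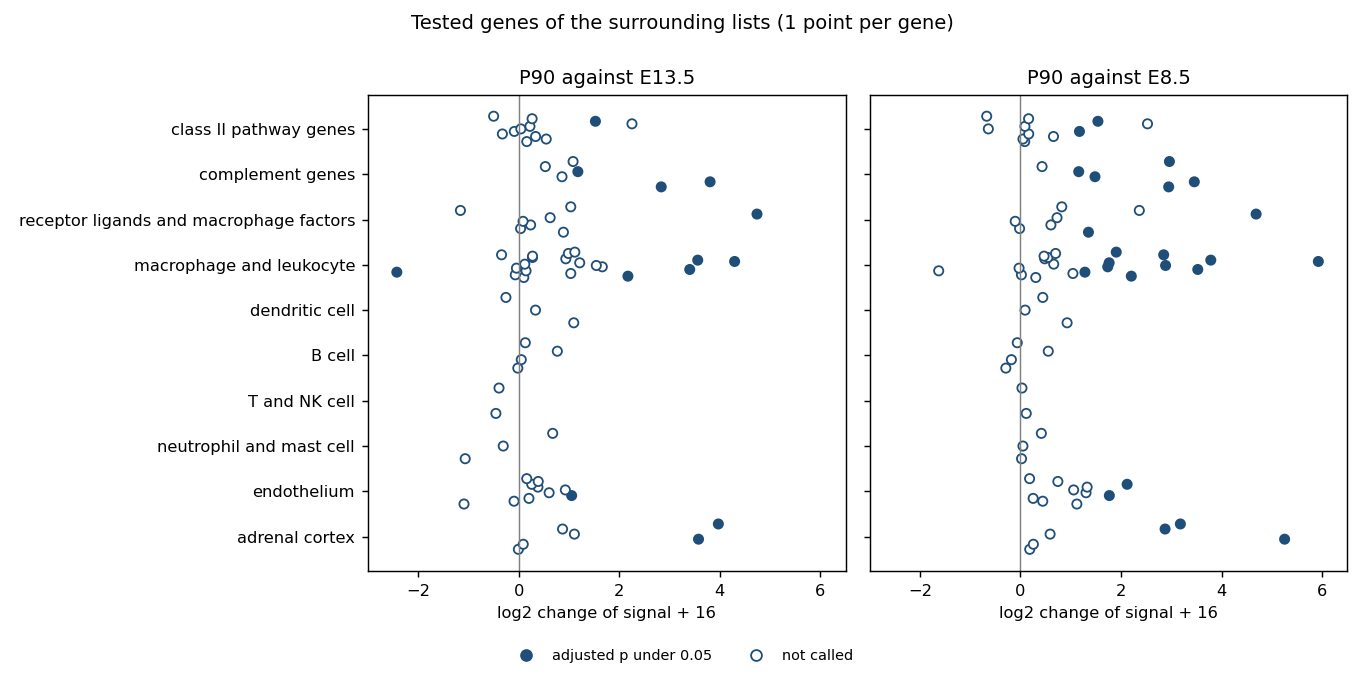
Log2 change of each tested gene of 10 pathway and marker lists for P90 against E13.5 (left) and P90 against E8.5 (right); each point is 1 gene by its brightest tested probe set, filled where called. Lyz1 reaches 4.29 and 5.92 and Irf8 4.74 and 4.68, while the class II pathway list has medians of 0.23 and 0.16.

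At E13.5 against E8.5, markers of several cell types held calls, beside 8.82% of all genes called higher and 6.77% lower. Coro1a rose by 3.70 and Pf4, a chemokine of platelets and some macrophages, by 3.19, the 2 of 20 macrophage and leukocyte genes called (limma, adjusted p = 0.0001262 and 0.002128). Maf, a macrophage transcription factor, rose by 3.52 and Serping1 by 1.88 (limma, adjusted p = 0.03346 and 0.03185). Either call was lost when certain single arrays were left out. For Maf these were E8.5 replicates 1 and 3 and E13.5 replicate 3. For Serping1 they were E8.5 replicates 2 and 3 and E13.5 replicates 1 and 3. Maf had no value on E13.5 replicate 3, so its E13.5 level rested on replicates 1 and 2, at 2039 and 603. Of 10 endothelial genes Cdh5 and Robo4 were higher, by 2.21 and 1.86, and of 5 fibroblast genes Dcn and Col1a2, by 5.31 and 2.25 (limma, adjusted p = 0.01616, 0.00253, 0.001109 and 0.01194). Of 6 cortical genes Nr5a1 was higher, with means of 200.1 at E13.5 and 38.7 at E8.5 (limma, adjusted p = 0.002725), and of 5 red cell genes Alas2 and Slc4a1 were higher and Hbb-bh1 lower. Each of Cdh5, Col1a2, Alas2, Slc4a1 and Hbb-bh1 lost its call when at least 1 single array was left out: E8.5 replicate 2 did so for all but Col1a2, and E8.5 replicate 1 for Cdh5, Col1a2 and Slc4a1. E13.5 replicate 3 ended the calls of Cdh5 and Hbb-bh1, E8.5 replicate 3 that of Hbb-bh1, and any of E13.5 replicate 1, E13.5 replicate 2, P90 replicate 2 and P90 replicate 3 that of Slc4a1. The part of these cell types in the E13.5 signals of H2-Ab1 and C1qc was not tested. None of the dendritic, B cell, or T and NK cell genes was called (limma, 0 at an unadjusted p under 0.05).

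Genes whose profile over the 9 arrays was most like that of the class II genes were sought among 13139 genes, with H2-Eb1 and H2-Ab1 as the class II genes that had no empty cell. Pearson's r, given as a description over arrays of 3 stages, was 0.993 for Asah2, 0.989 for Dlg2, 0.988 for A930009L07Rik and 0.987 for Synpo2 and Gria3. Asah2, a ceramidase, averaged 34.5, 69.4 and 718 in stage order. For the mean profile of 5 macrophage genes the nearest were Plscr4 (0.993), Aga (0.992), Parp12 (0.992), Ms4a6b (0.986) and N4bp2l1 (0.984). Between the genes themselves, H2-Eb1 and H2-Ab1 1450648_s_at correlated at r = 0.971 and C1qb 1434366_x_at and C1qc at 0.966, while Aif1 and Csf1r 1419872_at did so at 0.355.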

How the data were processed

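A PicoPure kit was used for RNA, and 400 ng of total RNA was labelled, per the labels' protocols. In the deposited table each probe set has a single intensity on each array, not logged, with 1 as the lowest value. MAS5, GCOS, RMA and GCRMA are named in the submitters' processing notes, without role or version. Scaling is not given in the sources used here, and 1.98% of cells were empty. Symbols came from the platform annotation.

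Log2(signal + 16) was fitted without further scaling in limma 3.58.1 (R 4.3.3; stage as the sole term, eBayes with trend, 6 residual degrees of freedom). Probe sets needed a log2 value above the 40th percentile (signal 26.1) on 3 arrays and 2 values per stage. Adjustment was by Benjamini-Hochberg over 24012 probe sets, with calls under 0.05. The fit was tested on simulated data. Gene lists were described by brightest tested probe set, counts and medians, with no set test. Named beside the 10 genes were, per list, at most 4 called genes with the largest change, fixed check genes, and the 5 genes most alike in profile. Batf3, Ccr7, Itgax, Zbtb46, Cd8a, Cyp11a1, Mrc1, Fcgr1, Fcgr3, Cd53, Lcp1, P2ry12, Lyve1, Trem2, Mertk, Cyba, Cd163 and genes named for empty cells were chosen after their values were seen. H2-DMb1 was not analysed here. Alternatives covered pseudocount, filter, normalization, variance model, arrays fitted, probe set choice, a replicate block and single arrays left out. The genes and lists were chosen with earlier results of these data known.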

Additional observations from a re-analysis of the deposited data

How the results depend on the processing

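A total of 21 alternative settings were run. P90 calls of H2-Eb1, both tested H2-Aa probe sets and H2-Ab1 1450648_s_at held in every one in which they were tested. The 8 probe sets called at P90 against E13.5 became 4 at a 60th percentile filter, 5 with the brightest probe set per gene, 4 without _x_at and _s_at probe sets, 5 among probe sets with no empty cell and 2 without those 3 arrays, 1 a stage, on which the Actb difference was largest; fewer probe sets were tested in all of these. Leaving out single arrays gave 4 to 8. The 9 at P90 against E8.5 became 4, 5 and 5 at the stricter filter, without those suffixes and without the Actb arrays, and 5 to 11 without single arrays. The 2 at E13.5 against E8.5 became 4 with a pseudocount of 1 or only the arrays compared, 1 at the stricter filter, without trend or without those suffixes, and 0 with a pseudocount of 64, no filter or without the Actb arrays (limma, with 3, 6 and 4 higher at an unadjusted p under 0.05); single arrays left out gave 0 to 3. Deviations from the stage mean correlated at -0.357 to 0.424 between arrays of the same replicate number. Arrays of unlike number were not compared, so this does not settle whether replicate numbers pair the arrays. A replicate block gave 8, 8 and 1 calls, against 8, 9 and 2. C1qb 1417063_at lost its P90 call against E8.5 under the block and with a pseudocount of 1, and C1qc and C1qb 1434366_x_at lost theirs against E13.5 without the Actb arrays. Csf1r 1419872_at was called at P90 against E8.5 with quantile normalization, without trend or without E13.5 replicate 2. Uncalled log2 changes turned sign for Csf1r 1419873_s_at at P90 against E13.5 (-0.0696 without the Actb arrays, -0.10 to 0.31 without single arrays), for Csf1r 1423593_a_at at E13.5 against E8.5 (-0.10 and -0.053 to 0.35) and for Aif1 in the same comparison (0.28 and -0.25 to 0.20). Over all probe sets, calls ran from 678 to 2522 (1795 as reported), 2811 to 6416 (4993) and 1761 to 4601 (3594) in the 3 comparisons. Of 1617 single values, 1496 kept direction and side of the threshold, 95 lost a call, 17 gained one and 9 turned sign. The cause of these shifts was not tested. With 3 arrays a stage and no detection calls, differences among dim signals were not resolved.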

Other observations

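Some probe sets had no value on any P90 array. Among adrenal cortex genes, the brightest probe sets of Star, Hsd3b1, Cyp21a1 and Cyp11b1 (4 of 10 annotated, enzymes and the cholesterol carrier of steroid synthesis) were empty there. Other probe sets of Star and Cyp21a1 are not described here. Also empty were C1qa, H2-Aa 1438858_x_at and C1qb 1437726_x_at. Over the table, 118 probe sets were empty on all 3 P90 arrays, 244 on all E13.5 arrays and 65 on all E8.5 arrays. C1qb 1437726_x_at was higher at E13.5 than at E8.5 when those 6 arrays were fitted alone, by 1.94 (limma, adjusted p = 0.002968). Of the 20 probe sets, 7 were empty on P90 replicate 1, 3 on replicate 2 and 3 on replicate 3.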
